A study of Mus musculus with 70 samples.

Results

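Circulating regulatory T cells (Tregs) that carry the IL-33 receptor ST2 on their surface were compared with circulating Tregs that lack it, and both populations were sorted as CD44hi, the state of antigen-experienced effector Tregs. The comparison held 9 of the 70 RNAseq libraries of the study, namely 4 ST2+ CD44hi and 5 ST2- CD44hi libraries from blood, chosen by their labelled tissue and population and by a minimum of 1000000 counts. The donors were 5 male Foxp3YFP-cre mice (the allele Foxp3tm4(YFP/icre)Ayr on a B6.129(Cg) background) aged 16.6 to 18.6 weeks, which received no treatment stated in the labels. In this strain every cell that expresses Foxp3, the lineage transcription factor of Tregs, also carries YFP and Cre, so all groups share the reporter allele. Each mouse gave both populations, and 4 mice (mice 2 to 5) have both libraries after the count minimum. The ST2+ library of mouse 1, made from 66 cells, held 488666 counts and was left out. The study sorted Tregs as live CD45.2+ cells that were positive for CD4 and YFP and negative for markers of other leukocytes such as CD8 and CD11b, 55 to 220 per blood library, and sequenced amplified full-length cDNA. The question was how far ST2+ Tregs in the circulation differ from other circulating effector Tregs.

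ST2 is encoded by Il1rl1. Its ligand IL-33 is released by stromal and epithelial cells, and signals through ST2 and the shared chain Il1rap to MyD88. ST2+ Tregs are known from adipose tissue, lungs, gut and skin, where GATA3, BATF and related factors set the gene expression of effector Tregs and where amphiregulin made by Tregs takes part in repair. Central Tregs recirculate through lymphoid organs with the help of CCR7 and express transcription factors of the resting state such as Satb1, Bach2, Tcf7 and Foxp1.

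The 9 libraries held 1545636 to 2249479 counts. Genes detected, with at least 1 count, numbered 13800 ± 1218 per ST2+ library (SD, n = 4) and 13870 ± 1425 per ST2- library (SD, n = 5), a difference that an exact two-sided permutation test did not separate from 0 (p = 0.952). Foxp3 lay between 105 and 178 CPM (counts per 1000000, scaled with TMM factors) in all 9 libraries. Transcripts of markers of other blood cells were detected, in part at summed levels above that of Foxp3. The sum of 7 platelet markers was 250 to 825 CPM in ST2+ and 103 to 332 CPM in ST2- libraries, and the sum of 6 erythroid markers was 12.8 to 405 and 2.19 to 576 CPM. B cell markers summed to 881 to 1186 and 767 to 1193 CPM with Ms4a1 at 0 in every library, and CD8 T and NK cell markers to 121 to 207 and 154 to 317 CPM with Cd8a and Ncr1 at 0, and most of it from Nkg7 (132 and 149 CPM on average in ST2+ and ST2-) and Cd8b1 (24.9 and 46.3 CPM). Myeloid markers summed to 271 to 350 and 123 to 577 CPM with Csf1r and Cd14 at 0, Cst3 at 191 and 145 CPM and Lyz2 at 92.2 and 38.6 CPM on average. The B cell gene Cd79b averaged 95.6 and 47.4 CPM and did not pass (adjusted p 0.281 for all groups). Basophil and mast cell markers reached at most 24.4 CPM and eosinophil markers 2.55 CPM, with Fcer1a, Prss34, Siglecf and Epx at 0. All 7 platelet markers had a log2 fold change above 0 (median 1.56) and none passed the test (2 passed by limma), and the part of platelet RNA in the results was not tested. In the lists of other blood cells, 2 genes passed the test, Cd74 (log2 fold change 1.14 ± 0.30 SE, adjusted p 0.0143, and 0.139 when the blood libraries were fitted alone) and Tyrobp (0 counts in all ST2+ libraries and 0 to 40.4 CPM in ST2- libraries). Tyrobp lost its call with mouse as a block (adjusted p = 0.0547) and without mouse 2, 3, 4 or 5, and Cd74 lost it without mouse 3 (adjusted p = 0.0748) or mouse 4 (adjusted p = 0.0619).

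**Figure D1:**
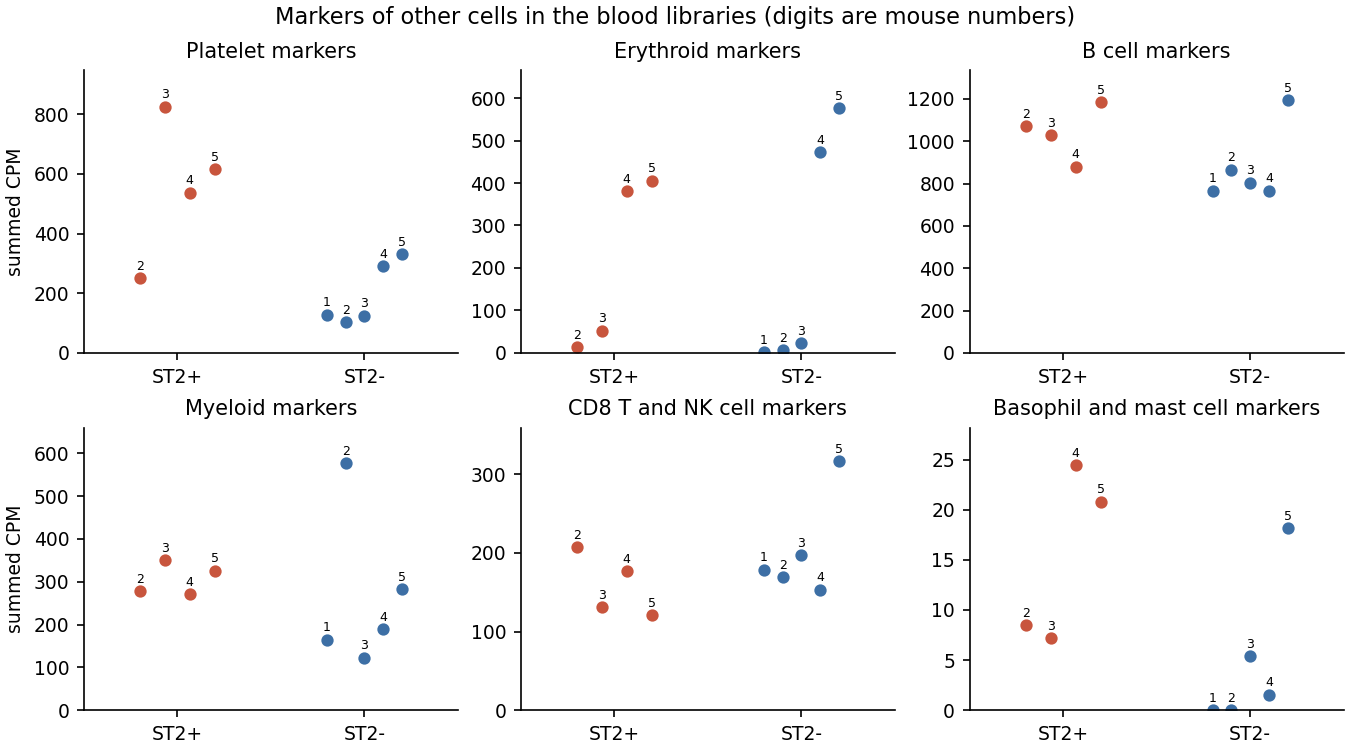
Summed CPM of marker genes of other cell types (vertical axes) in the ST2+ (red) and ST2- (blue) blood libraries, where each point is 1 library and the digit above it is the mouse. Platelet markers reach 825 CPM in the ST2+ library of mouse 3, and erythroid markers are highest in mice 4 and 5 of both populations.

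ST2+ and ST2- Tregs of blood differed in 532 of 13173 tested genes, of which 296 were higher and 236 lower in ST2+ Tregs. Differentially expressed genes (DEGs) were those changed 1.5-fold or more with an adjusted p no greater than 0.05 in edgeR's quasi-likelihood test, fitted over all 14 groups of the study. These counts are 4.04% of the tested genes in all, 2.25% higher and 1.79% lower. The same shares are the background for the counts of each gene list below. When the 9 blood libraries were fitted alone, 115 of 12590 genes passed (0.913%), 52 higher (0.413%) and 63 lower (0.5%), and 110 genes passed in both fits (0.835%), 51 higher (0.387%) and 59 lower (0.448%). With mouse as a block 582 genes passed (4.42%, with 2.41% higher and 2.0% lower), 75 passed in blood alone with this block, 28 higher and 47 lower (0.596%, with 0.222% and 0.373%), and by limma 436 (3.31%, with 1.79% higher and 1.52% lower). The biological coefficient of variation within groups was 68.8% in blood against 55.3% over the 14 groups together, so p values are given for "all groups" and then for "blood alone". Leaving out mouse 2 or mouse 3 brought the count of the first fit to 342 and 238, and leaving out mice 1 to 5 in turn brought that of blood alone to 100, 30, 42, 27 and 57. The ST2+ library of mouse 3 was made from 55 cells, the fewest of the 9. The 4 ST2+ libraries lay above all 5 ST2- libraries in 177 of the 296 higher DEGs, and below all of them in 134 of the 236 lower DEGs. Among all tested genes such a separation was seen in 2.71% upward and 2.43% downward. As the DEGs were picked by their p in these same libraries, their separation describes the choice and is not independent evidence. In bulk libraries, fewer cells that express a gene and less RNA per cell cannot be told apart.

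**Figure D2:**
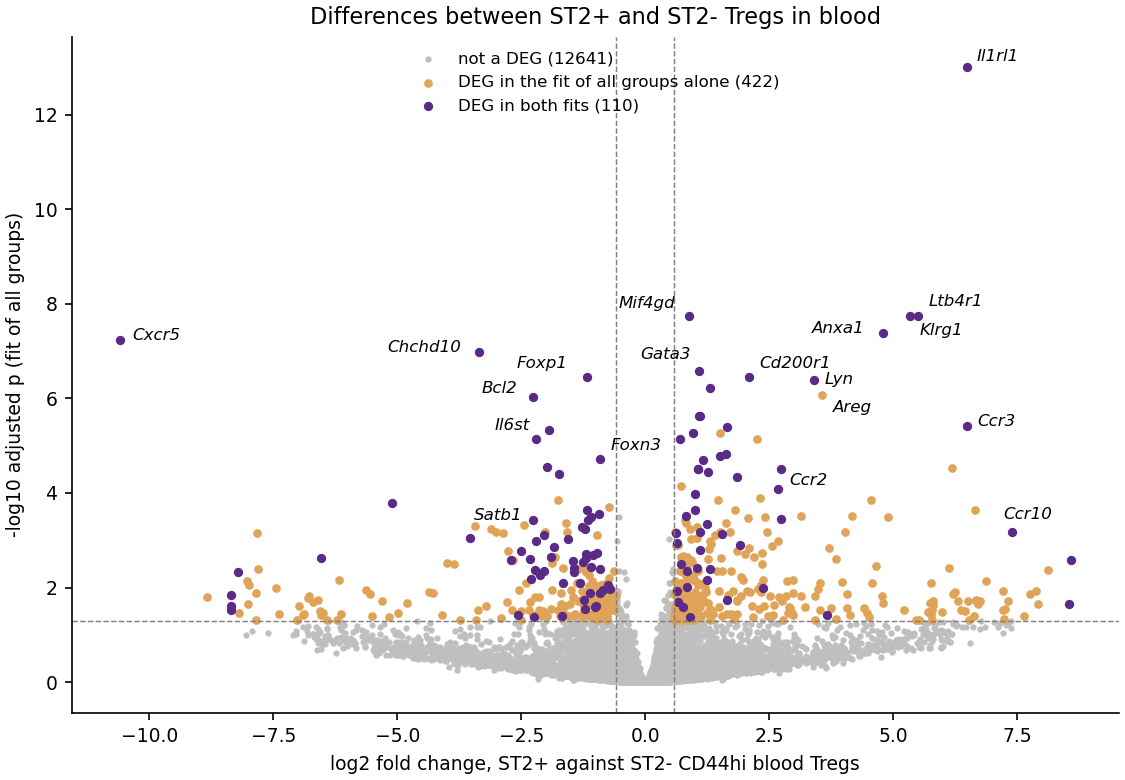
Each point is 1 of 13173 tested genes, with the log2 fold change of ST2+ against ST2- CD44hi blood Tregs on the horizontal axis and −log10 of the adjusted p of the fit of all groups on the vertical axis. Purple marks the 110 DEGs of both fits and orange the other DEGs, and the dashed lines mark a 1.5-fold change and an adjusted p of 0.05.

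The sort could be read from the transcript of its own marker. Il1rl1 (ENSMUSG00000026069, GRCm38 chromosome 1:40429570-40465415, forward strand) was at 572, 531, 507 and 476 CPM in the ST2+ libraries of mice 2, 3, 4 and 5, and at 1.32, 0.625, 1.95, 13.8 and 11.7 CPM in the ST2- libraries of mice 1 to 5. Values of single libraries are given in this order of mice from here on. As the gate selected on the ST2 protein, the 88.8-fold difference of the means (log2 fold change 6.48) is a description of the sort. The ST2- libraries of mice 4 and 5 held more Il1rl1 than those of mice 1 to 3. In the DEGs the library of mouse 5 was the most often nearest to ST2+. Of the 268 higher DEGs in which 1 ST2- library was highest without a tie, that library was from mouse 5 in 144. It was from mouse 4 in 48, mouse 3 in 30, mouse 2 in 29 and mouse 1 in 17. Of 225 lower DEGs with a single lowest ST2- library, that library was from mouse 5 in 102. It was from mouse 2 in 45, mouse 1 in 41, mouse 4 in 19 and mouse 3 in 18. The median level of the 296 higher DEGs was 4.60, 4.79, 5.30, 5.39 and 5.6 on the log2(CPM + 0.5) scale in the ST2- libraries of mice 1 to 5, and 6.46 to 6.75 in the ST2+ libraries.

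Genes that the study named as a common signature of ST2+ Tregs followed the sort in blood. Of 8 such genes, 7 were higher and Tbc1d4 was not called, and 5 of the 7 also passed in blood alone. The median log2 fold change of the 8 was 2.12 against 0 over all tested genes. The study chose this list on samples that include these, and it holds the sort marker, so the count is not independent evidence. Leaving out mouse 3 gave 5 higher genes and leaving out any other mouse 6.

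Klrg1, an inhibitory receptor for cadherins (ENSMUSG00000030114, GRCm38 chromosome 6:122270596-122282882, reverse strand), was at 510, 467, 452 and 525 CPM in ST2+ and at 1.32, 0.625, 0.975, 16.8 and 42.7 CPM in ST2- libraries. Its log2 fold change was 5.33 ± 0.62 (SE), with an adjusted p of 1.85e-08 for all groups and 0.00379 for blood alone. Gata3, the transcription factor of type 2 responses that also serves Tregs (ENSMUSG00000015619, chromosome 2:9857078-9890034, reverse strand), was at 235, 265, 332 and 267 CPM against 94.3, 142, 132, 150 and 132 CPM. The 2 groups did not overlap for either gene, but Gata3 was present in every ST2- library and rose 2.11-fold, while Klrg1 was near 0 in mice 1 to 3 of the ST2- population. For Gata3 the log2 fold change was 1.08 ± 0.14 (adjusted p 2.65e-07 for all groups and 0.0078 for blood alone). Lyn, a Src family kinase (ENSMUSG00000042228, chromosome 4:3678115-3813122), was at 73.4, 107, 42.4 and 68.2 CPM against 0, 8.76, 8.28, 11.7 and 5.85 CPM (log2 fold change 3.41 ± 0.45, adjusted p 4.03e-07 and 0.0482). Ptpn13, a protein tyrosine phosphatase, was at 151 ± 33 CPM (SD, n = 4) against 51.1 ± 29.7 CPM (SD, n = 5), with adjusted p of 7.42e-04 and 0.049. Its ST2- library of mouse 1 stood at 104 CPM, apart from the 30.0 to 42.4 CPM of the others.

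Rab4a, a small GTPase of endosome recycling, and Rln3, a relaxin-family peptide hormone, were called for all groups but not in blood alone. Rab4a was at 19.7, 35.7, 49.8 and 32.5 CPM against 0, 6.25, 3.90, 11.2 and 5.27 CPM (adjusted p 0.0156 and 0.252), and lost its call without mouse 3 (adjusted p 0.0702) or mouse 4 (adjusted p 0.0646). Rln3 was at 75.6, 81.5, 72.3 and 86.3 CPM against 9.65, 30.0, 44.3, 36.7 and 46.2 CPM (adjusted p 0.0341 and 0.243), and kept its call only when mouse 4 was left out (adjusted p 0.0876 to 0.116 without mouse 1, 2, 3 or 5). Tbc1d4, a regulator of Rab GTPases in glucose transporter traffic, is the only signature gene that the study reported as lower in ST2+ Tregs. It was at 45.2, 51.8, 81.1 and 90.8 CPM in ST2+ and at 125, 186, 209, 186 and 293 CPM in ST2- libraries, with no overlap and an adjusted p of 0.082 for all groups and 0.0162 for blood alone.

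Since GATA factors bind the letters AGATAA, the promoters of these genes were searched for it on both strands (TTATCT is the same motif on the other strand). The table of promoters from RefSeq (build GRCm38, 250 bases before to 50 bases after each start) holds 32851 promoters, and 11.2% contain the motif. Entries exist for 5 of the 8 genes. Both promoters of Il1rl1 and that of Rln3 held the motif, while those of Gata3, Ptpn13 and Tbc1d4 did not. After their values were seen, Ccr2 and Ccr3, neighbouring chemokine receptor genes described further on, were added, and each held 1 motif, whereas Ccr4 held none. The sequences show where the motif (in capitals) lies, 217 and 103 bases before the start in the upstream and downstream Il1rl1 promoters, 140 and 80 bases before it in Rln3, 97 bases before it in Ccr2 and 30 bases before it in Ccr3. A match of letters does not show binding, and the lack of these exact letters does not show its absence.
Il1rl1, upstream promoter, chr1:40429320-40429619, forward strand: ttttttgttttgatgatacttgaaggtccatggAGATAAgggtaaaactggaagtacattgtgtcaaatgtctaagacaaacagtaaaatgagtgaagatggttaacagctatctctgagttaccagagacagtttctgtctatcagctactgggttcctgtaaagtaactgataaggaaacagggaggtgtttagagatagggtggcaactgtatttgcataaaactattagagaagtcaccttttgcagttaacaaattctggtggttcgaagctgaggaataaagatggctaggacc
Il1rl1, downstream promoter, chr1:40439379-40439678, forward strand: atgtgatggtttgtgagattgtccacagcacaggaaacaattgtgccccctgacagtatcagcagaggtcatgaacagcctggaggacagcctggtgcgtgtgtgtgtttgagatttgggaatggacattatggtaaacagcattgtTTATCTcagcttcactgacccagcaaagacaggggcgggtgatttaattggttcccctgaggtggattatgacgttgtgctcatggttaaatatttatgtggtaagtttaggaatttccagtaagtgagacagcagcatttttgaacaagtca
Rln3, chr8:84044930-84045229, reverse strand: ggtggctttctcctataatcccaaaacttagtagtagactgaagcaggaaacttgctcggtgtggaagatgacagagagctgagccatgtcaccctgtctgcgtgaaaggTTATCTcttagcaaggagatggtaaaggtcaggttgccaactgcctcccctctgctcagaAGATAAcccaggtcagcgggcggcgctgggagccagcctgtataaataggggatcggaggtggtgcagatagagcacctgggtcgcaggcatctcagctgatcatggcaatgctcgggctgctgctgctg
Ccr2, chr9:124101933-124102232, forward strand: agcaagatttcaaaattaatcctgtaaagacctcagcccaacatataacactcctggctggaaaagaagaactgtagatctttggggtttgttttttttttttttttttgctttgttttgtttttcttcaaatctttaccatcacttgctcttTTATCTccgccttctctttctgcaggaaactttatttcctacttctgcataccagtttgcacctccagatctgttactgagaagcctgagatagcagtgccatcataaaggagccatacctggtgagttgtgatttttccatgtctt
Ccr3, chr9:124021721-124022020, forward strand: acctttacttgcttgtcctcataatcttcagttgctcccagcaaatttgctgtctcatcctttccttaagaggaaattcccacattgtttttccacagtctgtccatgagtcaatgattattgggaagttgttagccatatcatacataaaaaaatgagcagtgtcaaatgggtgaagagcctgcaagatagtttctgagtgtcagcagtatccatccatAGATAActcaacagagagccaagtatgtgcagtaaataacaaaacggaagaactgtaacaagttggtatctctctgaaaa

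Outside the sort marker and the signature, the higher DEGs with the smallest p included a lipid mediator receptor, an annexin, an inhibitory receptor and amphiregulin. Ltb4r1, the leukotriene B4 receptor (ENSMUSG00000046908, chromosome 14:55765962-55768494), was at 82.0, 45.8, 121 and 170 CPM in ST2+ libraries against 0, 0, 1.46, 0 and 10.5 CPM. Anxa1, a phospholipid-binding annexin of inflammation control, was at 286, 159, 213 and 147 CPM against 0, 0, 10.7, 19.4 and 5.27 CPM. Their log2 fold changes were 5.50 ± 0.63 (adjusted p 1.85e-08 for all groups, 0.019 for blood alone) and 4.80 ± 0.58 (4.19e-08 and 0.00871). Ltb4r1 was thus at 0 CPM in most ST2- libraries, while Anxa1 was detected in most of them at up to 19.4 CPM. Cd200r1, an inhibitory receptor for CD200, was at 202, 216, 171 and 206 CPM against 32.0, 29.4, 69.7, 45.9 and 56.2 CPM, a 4.26-fold difference (adjusted p 3.46e-07 and 0.00194). Mif4gd, a translation factor of histone mRNAs, differed less but tightly, at 315 ± 20.3 CPM against 171 ± 26.1 CPM (SD, n = 4 and 5, adjusted p 1.85e-08 and 0.00883). Rfk, the riboflavin kinase that makes flavin cofactors, was at 368 ± 77.6 against 147 ± 18.6 CPM (adjusted p 5.92e-07 and 0.0023). Areg, which encodes amphiregulin, was at 13.3, 22.5, 12.4 and 73.2 CPM against 0.439, 2.50, 4.87, 3.06 and 1.76 CPM. Its log2 fold change was 3.58 ± 0.49 with an adjusted p of 8.5e-07 for all groups, but 0.106 for blood alone, where the library of mouse 5 stands apart.

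The lower DEGs of smallest p were Cxcr5, Chchd10, Foxp1, Bcl2, Il6st, Slc35d1, Foxn3, Ift80, Ugcg and Sec24a. Cxcr5, the receptor that brings T cells to B cell follicles (ENSMUSG00000047880, chromosome 9:44511787-44561877, reverse strand), had no count in any of the 4 ST2+ libraries and stood at 125, 129, 71.1, 77.5 and 68.5 CPM in the ST2- libraries. Against a floor of 3 counts over the ST2+ group this is at least 271-fold lower (adjusted p 5.95e-08 for all groups and 1.75e-04 for blood alone). Bcl2, the anti-apoptotic protein (ENSMUSG00000057329, chromosome 1:106538178-106714274, reverse strand), was at 163, 111, 176 and 137 CPM against 587, 757, 778, 764 and 630 CPM. The groups lay far apart, with a log2 fold change of -2.26 ± 0.31 (adjusted p 9.26e-07 and 2.63e-05). Chchd10, a protein of the mitochondrial intermembrane space, was at 3.73, 3.82, 2.76 and 4.97 CPM against 38.2, 43.8, 42.9, 33.7 and 40.4 CPM (adjusted p 1.05e-07 and 0.0155). Il6st, the shared gp130 chain of IL-6 family receptors, was at 73.6 ± 23.5 against 282 ± 116 CPM (SD, n = 4 and 5, adjusted p 4.75e-06 and 0.0114). Foxp1 was at 298, 291, 310 and 179 CPM against 603, 622, 671, 647 and 486 CPM (adjusted p 3.46e-07 and 0.00608), and Foxn3, a forkhead repressor, at 241 ± 7.5 against 454 ± 77.7 CPM (adjusted p 1.9e-05 and 0.00947). Slc35d1 (a nucleotide sugar transporter), Ift80 (intraflagellar transport) and Ugcg (the ceramide glucosyltransferase) fell by 2.20, 1.99 and 1.74 on the log2 scale and passed in both fits. Sec24a, a coat protein of secretory vesicles, fell by 1.76 for all groups (adjusted p 1.43e-04) with an adjusted p of 0.084 for blood alone. All 20 genes with the smallest p, 10 in each direction, had no overlap between groups, moved in 1 direction in all 4 paired mice, and stayed DEGs of the fit of all groups whichever mouse was left out. Over all tested genes, 2.71% upward and 2.43% downward had no overlap. As the 20 were picked by their p in these same libraries, these traits describe the choice and are not independent evidence.

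**Figure D3:**
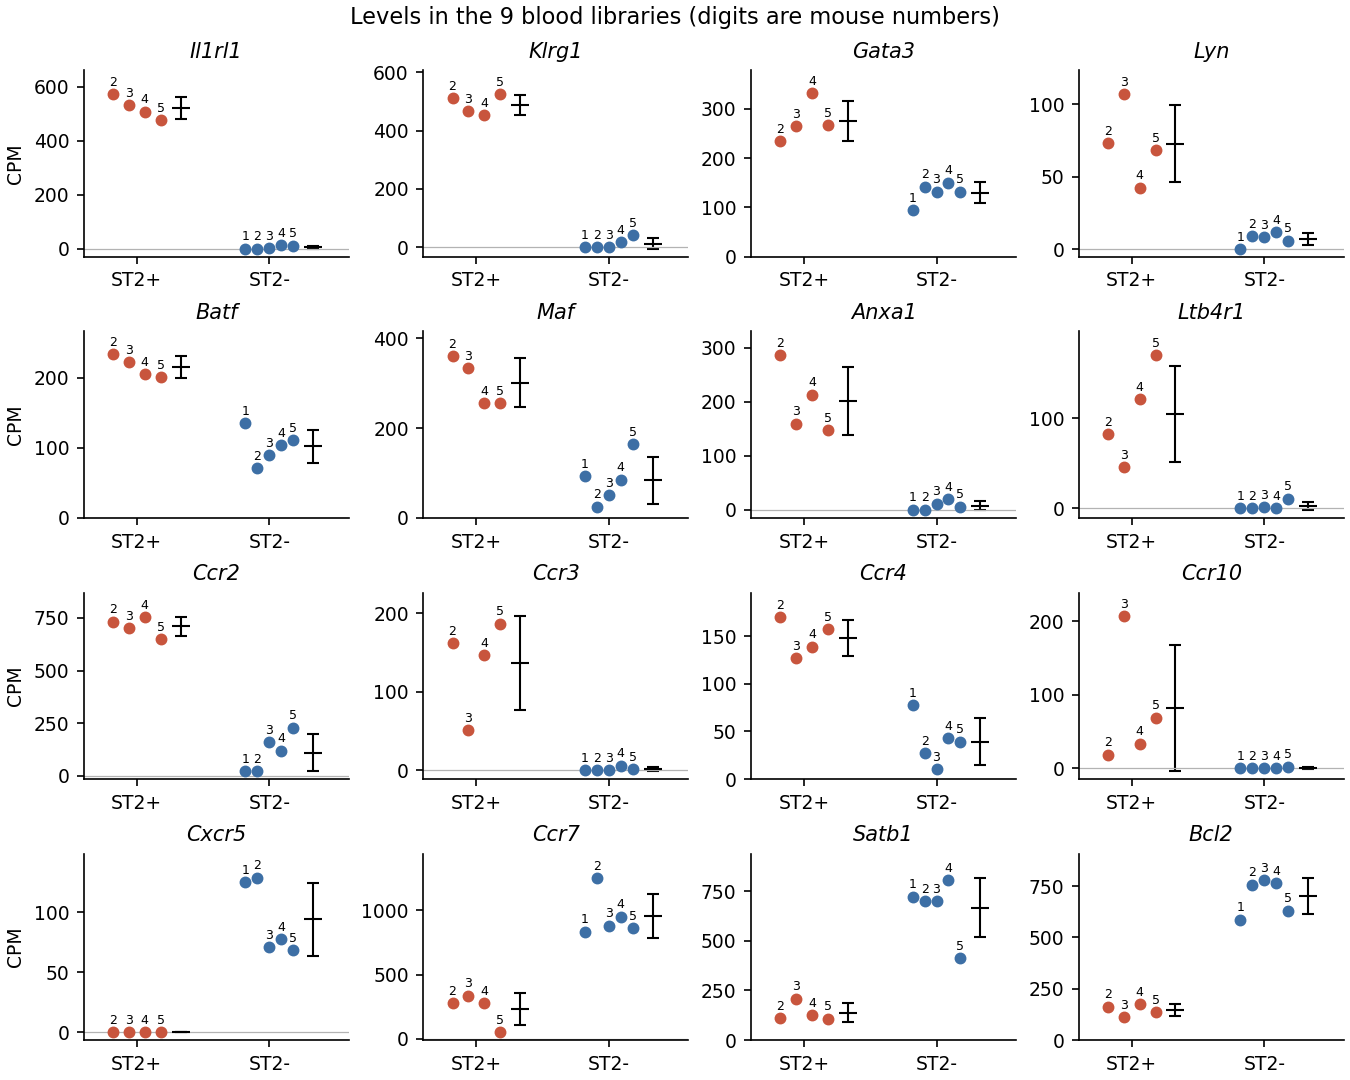
CPM (vertical axes, linear, in panels of their own scale) of 16 genes in the 4 ST2+ (red) and 5 ST2- (blue) blood libraries, with mean and SD beside the points and the mouse number above each point. The upper 3 rows show genes that are higher in ST2+ Tregs and the lowest row genes that are lower, and Cxcr5 is at 0 in all 4 ST2+ libraries.

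Chemokine receptors split into a set that was higher in ST2+ Tregs and the 2 receptors of lymphoid tissue that were lower. Of 19 tested receptors, 6 were higher and 2 lower, and 4 and 2 of these also passed in blood alone. The median log2 fold change of the list was 1.15. With any mouse left out, 5 were higher, and without mouse 5 the lower count fell from 2 to 1.

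Ccr2, the receptor for CCL2 (ENSMUSG00000049103, chromosome 9:124101950-124113557), was at 732, 701, 755 and 650 CPM in ST2+ libraries against 22.4, 21.9, 160, 119 and 228 CPM. Ccr3, the eotaxin receptor (ENSMUSG00000035448, chromosome 9:124021972-124031689), was at 162, 50.9, 147 and 187 CPM against 0, 0, 0, 6.12 and 1.17 CPM. In ST2- Tregs, Ccr2 transcripts were thus present in every mouse, and Ccr3 counts were seen in mice 4 and 5 alone. The log2 fold changes were 2.69 ± 0.46 for Ccr2 (adjusted p 8.31e-05 for all groups and 0.0283 for blood alone) and 6.49 ± 0.92 for Ccr3 (3.85e-06 and 0.00324). Ccr4, the receptor for CCL17 and CCL22, was at 170, 127, 139 and 157 CPM against 77.7, 26.9, 10.2, 42.8 and 39.2 CPM (adjusted p 0.00126 and 0.049). Ccr10, a skin homing receptor, varied most among ST2+ libraries, at 18.6, 207, 33.6 and 69.1 CPM against 0, 0, 0, 0 and 2.34 CPM (adjusted p 6.62e-04 and 0.00649). Ccrl2, an atypical chemokine receptor named after its values were seen, had a log2 fold change of 1.19 (adjusted p 0.0195 for all groups and 0.386 for blood alone). Cxcr6 was at 238, 204, 296 and 360 CPM against 31.6, 0, 56.0, 86.2 and 300 CPM, so the groups overlapped through mouse 5. It was called for all groups (adjusted p 0.0405) but not in blood alone (adjusted p 0.444), and lost its call without mouse 1, 2, 3 or 4 (adjusted p 0.112 to 0.186).

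Ccr7, which guides T cells to lymph nodes (ENSMUSG00000037944, chromosome 11:99144196-99155077, reverse strand), was at 275, 335, 275 and 49.7 CPM against 832, 1249, 881, 951 and 862 CPM. It was lower in ST2+ Tregs with no overlap (log2 fold change -2.03 ± 0.47, adjusted p 0.00447 for all groups and 0.0232 for blood alone), and had an adjusted p of 0.0709 without mouse 5. Its highest count was 1.01 per exon base in any of the 9 libraries. Counts of short abundant genes varied little in this table (B2m from 1153 to 1464 counts over 67 libraries), and the effect of that on the fold was not tested. Other receptors that the study named did not pass. Cxcr3 was at 345 ± 46.0 against 262 ± 117 CPM, Cxcr4 at 56.6 ± 3.56 against 46.4 ± 17.6 CPM and Ccr8 at 26.1 ± 22.4 against 11.6 ± 7.44 CPM (SD, n = 4 and 5, adjusted p 0.681, 0.66 and 0.0759 for all groups and 0.507, 0.777 and 0.575 for blood alone).

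In other tissues the level of these receptors ran differently. In ST2+ CD44hi Tregs, Ccr2 was at 108 ± 39.7 CPM in spleen and 502 ± 76.9 CPM in lungs (SD, n = 5 each) beside 710 ± 45.3 CPM in blood (SD, n = 4). In skin it was at 776 ± 178 CPM in ST2+ and 921 ± 123 CPM in ST2- Tregs (SD, n = 5 each), levels that the ST2- Tregs of blood, at 110 ± 89.4 CPM, did not approach. Ccr3 in ST2+ Tregs was at 18.2 ± 10.5 CPM in spleen, 78.3 ± 14.9 CPM in lungs and 137 ± 59.4 CPM in blood. Of the receptors described here, only Cxcr5 passed a test of the difference between blood and spleen or lungs.

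Among 17 tested factors of effector and helper lineages, 8 were higher and 1 lower (median log2 fold change 1.27), and 3 also passed in blood alone, namely Gata3, Batf and Maf. Batf, the AP-1 factor of tissue Tregs, was at 234, 222, 205 and 201 CPM against 135, 70.7, 89.7, 104 and 111 CPM (adjusted p 3.14e-05 for all groups and 0.0162 for blood alone). Maf was at 361, 334, 255 and 255 CPM against 92.6, 25.0, 51.2, 85.2 and 164 CPM (adjusted p 4.56e-05 and 0.0335). In both genes the lowest ST2+ library stood above the highest ST2- library. Nfil3 was at 117, 154, 142 and 111 CPM against 18, 1.25, 18, 36.7 and 63.2 CPM (adjusted p 7.26e-06 and 0.128). Id2 was at 397 ± 18.8 against 165 ± 97.9 CPM (SD, n = 4 and 5, adjusted p 0.00245 and 0.144), while its relative Id3, which marks less differentiated Tregs, was at 61.4 ± 23.2 against 92.3 ± 28.5 CPM (adjusted p 0.558 and 0.485). The other called members, named after their values were seen, were Ahr (2.20), Rora (1.51) and Bhlhe40 (1.34), with log2 fold changes in parentheses and adjusted p of 0.342, 0.121 and 0.203 for blood alone. Bcl6, the factor of follicular T cells, was low throughout, at 0.532, 0, 1.84 and 0.452 CPM against 7.90, 0, 2.92, 10.7 and 13.5 CPM (adjusted p 0.0252 and 0.439), and lost its call without mouse 2, 3, 4 or 5.

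Of 14 genes of quiescence and lymphoid recirculation, 6 were lower and 1 higher, and 5 and 1 of them passed in both fits, and 13 of the 14 had a log2 fold change below 0 (median -0.78). Satb1, a chromatin organizer, was at 111, 209, 125 and 108 CPM against 722, 699, 701, 804 and 411 CPM, and Bach2, a repressor of effector genes, at 21.3, 49.7, 22.6 and 21.2 CPM against 103, 99.4, 186, 169 and 114 CPM. The groups did not overlap in either gene (Satb1 adjusted p 3.82e-04 for all groups and 4.81e-04 for blood alone, Bach2 0.00416 and 0.00867). Tcf7 (log2 fold change -1.20, adjusted p 0.0285 and 6.39e-04) and Foxo1 (-0.63, adjusted p 0.00457 and 0.139), named after their values were seen, were called too. The 1 higher gene was Il7r, the IL-7 receptor chain, at 903 ± 97.4 against 570 ± 119 CPM (SD, n = 4 and 5, adjusted p 0.0206 and 0.0465), without a call when mouse 2 (adjusted p 0.141) or mouse 3 (adjusted p 0.0796) was left out. The list held 3 lower DEGs without mouse 5.

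Among genes of Treg identity, Foxp3 did not pass while CD25, Helios and others did. Foxp3 was at 124, 160, 143 and 139 CPM in ST2+ and at 143, 178, 161, 105 and 154 CPM in ST2- libraries (log2 fold change -0.06 ± 0.13, adjusted p 0.896 and 0.95), and its fold change had the opposite sign, 0.07, without mouse 2. Of 12 tested identity genes, 1 was higher, 4 were lower and 7 did not pass, and 9 had an unadjusted p below 0.05, against 18.8% of all tested genes. Il2ra, which encodes CD25, was at 225, 231, 218 and 283 CPM against 403, 590, 497, 413 and 394 CPM (log2 fold change -0.94 ± 0.17, adjusted p 2.73e-04 for all groups and 0.00967 for blood alone). Ikzf2, which encodes Helios, was at 1226 ± 116 against 787 ± 136 CPM (adjusted p 0.0118 and 0.0308), with a log2 fold change of 0.64 that fell under the 1.5-fold minimum at 0.57 with mouse as a block, so the 2 markers moved in opposite directions. Gpr83 and Izumo1r (folate receptor 4) fell by 2.30 and 0.85 on the log2 scale and passed in both fits. Lrrc32, which encodes GARP, was at 73.9 ± 41.8 against 200 ± 76.6 CPM (adjusted p 0.0387 and 0.12). Only Il2ra stayed a DEG whichever mouse was left out. Leaving out mouse 5 brought the lower count from 4 to 1 and mouse 4 to 2, and the higher count was 0 without mouse 1, 2 or 3.

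Receptors for IL-33 and for IL-18, a related cytokine, were tested with their signalling chain, and 2 of 15 genes were called, of which Il1rl1 is the sort marker. The other was Il18rap, the accessory chain of the IL-18 receptor, at 158, 305, 213 and 174 CPM against 48.7, 5.63, 107, 40.3 and 46.8 CPM (adjusted p 0.00143 for all groups and 0.0738 for blood alone). The shared signalling genes Il1rap, Myd88, Irak4 and Traf6 had log2 fold changes of 0.11, 0.03, 0.05 and 0. Of 26 cytokine receptors, 3 were higher and 3 lower. Il9r, the IL-9 receptor, was at 105, 130, 113 and 131 CPM against 0.439, 11.3, 8.28, 33.7 and 48.6 CPM, with the ST2- libraries of mice 4 and 5 again nearest to ST2+ (adjusted p 0.0013 and 0.139). Bmpr1a, a receptor for bone morphogenetic proteins, was at 35.7, 66.6, 25.3 and 14 CPM against 0, 5.63, 0, 0.51 and 1.17 CPM (adjusted p 0.00344 and 0.101, and 0.0681 without mouse 3). Ifngr2 was at 45.5 ± 18.5 against 98.1 ± 34.7 CPM (adjusted p 0.0112 and 0.26) and lost its call without mouse 2 or 4. Il10ra was at 195 ± 59.2 against 106 ± 31.9 CPM and did not pass (adjusted p 0.0706 and 0.165), but passed with mouse as a block (adjusted p 0.031). The higher count of this list was 1 without mouse 3.

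Suppressive, checkpoint and repair molecules were higher or not called. Of 21 tested genes 8 were higher and 0 lower (median log2 fold change 1.1), and Klrg1 and Icos also passed in blood alone. Icos, the inducible costimulator, was at 714, 753, 641 and 583 CPM against 293, 225, 266, 405 and 381 CPM (adjusted p 2.36e-06 and 0.00672). Fgl2, a secreted suppressor molecule, was at 111, 60.7, 88.0 and 69.1 CPM against 0, 22.5, 17.5, 22.4 and 36.3 CPM (adjusted p 3.39e-04 and 0.284). Il10, Gzmb, Tigit and Lgals1, named after their values were seen, had log2 fold changes of 3.53, 2.51, 1.63 and 0.65 and adjusted p of 0.405, 0.305, 0.174 and 0.107 for blood alone. Of these, Il10 was low in both populations, at 4.39 CPM in ST2+ and 0.307 CPM in ST2- libraries on average. In the TNF and TNF receptor superfamily, 1 of 31 genes was called, which does not exceed the 4.04% called over all tested genes. It was Fasl, at 8.51, 5.09, 8.76 and 10.4 CPM against 12.7, 34.4, 33.1, 42.8 and 83.7 CPM (adjusted p 0.0204 and 0.139), without a call when mouse 2, 3, 4 or 5 was left out.

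Integrins and adhesion molecules held 4 higher DEGs of 22 and 0 lower. Itgae, which encodes CD103, was at 369, 548, 292 and 331 CPM against 100, 10, 68.7, 72.4 and 118 CPM (adjusted p 0.0104 for all groups and 0.0182 for blood alone), and was not called without mouse 2 (adjusted p 0.0774) or mouse 3 (adjusted p 0.089). Itgb1 was at 1394 ± 111 against 822 ± 155 CPM (adjusted p 0.0252 and 0.0132) and lost its call without mouse 1, 2 or 4. Cd44, whose protein was part of the gate in both populations, was at 273, 266, 293 and 245 CPM against 141, 41.9, 155, 159 and 202 CPM (adjusted p 0.00288 and 0.228). All 4 ST2+ libraries were above the ST2- libraries in these 3 genes. Itgb3, also an integrin of platelets, was at 173 ± 35.3 against 86.4 ± 31.0 CPM and lost its call with mouse as a block (adjusted p 0.0559) and without mouse 2, 3, 4 or 5, and platelet markers stood at 250 to 825 against 103 to 332 CPM in the same libraries. The list held 1 higher DEG without mouse 2 and 2 without mouse 3 or 4.

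All 19 tested genes of the S100, annexin and cytoskeletal list had a log2 fold change above 0 (median 0.53), and 8 were called, of which Anxa1, Lmna and S100a6 passed in both fits. Lmna, the A-type lamin of the nuclear envelope, was at 161, 155, 230 and 147 CPM against 2.19, 44.4, 27.8, 37.2 and 20.5 CPM (adjusted p 3.14e-05 and 0.0232). Ahnak, a very large scaffold protein, was at 762, 671, 716 and 624 CPM against 311, 172, 382, 413 and 501 CPM (adjusted p 0.00543 and 0.0647, and 0.139 without mouse 2). S100a11 was at 98.4 ± 10.4 against 54.1 ± 13.8 CPM (adjusted p 0.00325 and 0.197). Without mouse 3 the list held 4 DEGs and without mouse 2 it held 5.

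Of 21 genes of G protein signalling and lipid mediator receptors, 4 were higher and 1 lower. Gna15, a G alpha subunit that couples many receptors to phospholipase C, was at 247, 256, 251 and 278 CPM against 91.3, 81.3, 54.6, 81.1 and 100 CPM (log2 fold change 1.66 ± 0.24, adjusted p 4.05e-06 and 6.79e-04). Rgs2, a regulator of G protein signalling, was at 519, 365, 407 and 395 CPM against 99.6, 238, 178, 241 and 226 CPM (adjusted p 0.00158 and 0.0313). With Ltb4r1 these were the 3 members that passed in both fits. Rgs14 was higher and Rgs10 lower for all groups (adjusted p 0.0138 and 0.0275), without a call in blood alone, and each lost its call without mouse 3 or 4 and without other mice.

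In the BCL2 family the 2 genes that fell in both fits have opposed roles. Beside Bcl2, the pro-apoptotic Bcl2l11 (BIM) was at 3.73, 22.9, 25.8 and 25.3 CPM against 141, 122, 112, 94.3 and 86.6 CPM (log2 fold change -2.50 ± 0.53, adjusted p 0.00171 and 0.0182). Pmaip1 (NOXA), also pro-apoptotic, was higher, at 75.0 ± 17.5 against 19.2 ± 13 CPM (adjusted p 0.007 and 0.335, and 0.0676 without mouse 3). Bid, likewise pro-apoptotic, was higher for all groups (adjusted p 0.0393) and was called in none of the 5 fits that left out a mouse. Mcl1, anti-apoptotic like Bcl2, averaged 363 CPM in ST2+ and 539 CPM in ST2- libraries, short of the 1.5-fold minimum. Its log2 fold change was -0.57 (adjusted p 0.00104 for all groups and 0.18 for blood alone). Bcl2l1, Bcl2a1b and Bcl2a1d, of the same role, had log2 fold changes of 0.70, 0.52 and 0.40 and did not pass. Without mouse 3 the list held 0 higher DEGs.

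Genes of proliferation leaned towards ST2+ Tregs without passing. All 24 tested genes of DNA replication and S phase had a log2 fold change above 0 (median 0.76), as did 24 of 31 genes of G2 and mitosis (median 0.64), and 0 were called in either list. At an unadjusted p below 0.05 there were 7 and 3 genes, against 18.8% of all tested genes. By DESeq2 the lists held 0 and 1 DEGs and by limma 0 and 0. In the fit of all groups, 1 S phase gene was called without mouse 1 or without mouse 4, and 1 gene of G2 and mitosis without mouse 5. The median of the S phase list in blood alone was 0.77, and -0.11 when mouse 5 was left out. Mki67, which encodes Ki-67, was at 77.7, 57.7, 60.4 and 143 CPM against 61.4, 0, 39.5, 32.6 and 152 CPM (log2 fold change 0.57 ± 0.63, adjusted p 0.705 and 0.817). The library of mouse 5 was the highest of its population in both, so the groups overlapped. Hmgb2 and Cenpa, the mitotic genes with the smallest p, were at 48.0 ± 7.75 against 29.7 ± 10.3 CPM and at 227 ± 40.7 against 144 ± 45.4 CPM (SD, n = 4 and 5, adjusted p 0.0809 and 0.0964 for all groups and 0.481 and 0.272 for blood alone). Their promoters hold both CCAAT (in 37.4% of all promoters) and TTTGAA (17.9%), on either strand. Among 11 D cyclins and CDK inhibitors, Cdkn1a, the p21 inhibitor, was higher, at 17.0, 1.27, 30.9 and 31.2 CPM against 0, 0.625, 0, 1.53 and 3.51 CPM (adjusted p 3.02e-04 for all groups and 0.233 for blood alone).

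Of 23 immediate early and NF-kB feedback genes, 3 were higher (Ier3, Fosl2 and Zfp36) and Dusp2 was lower, none of them in blood alone (adjusted p 0.079 to 0.405). Ier3 and Fosl2 were low, at 8.90 ± 7.18 against 0.125 ± 0.28 CPM and 5.12 ± 2.57 against 0.521 ± 0.419 CPM. The higher count of the list was 0 without mouse 2 or 3 and 1 without mouse 4, and Dusp2 was not called without mouse 2 (adjusted p 0.115). Of 22 genes of T cell receptor signalling and costimulation, 2 were higher, Icos and Lyn with the values above, and 2 were lower. Cblb, a ubiquitin ligase that restrains activation, was at 173, 163, 221 and 145 CPM against 248, 428, 451, 476 and 350 CPM (adjusted p 3.82e-04 and 0.0153). The lower count of the list was 1 without mouse 2 or 5. The receptor chains Cd3d, Cd3e and Cd3g and the kinases Lck and Zap70 had log2 fold changes between -0.22 and 0.03 and were not called. The chain Cd247 was at 262 against 379 CPM on average (log2 fold change -0.53, adjusted p 3.22e-04 and 0.137), short of the 1.5-fold minimum.

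Metabolic, stress and translation lists held few calls. Of 80 tested oxidative phosphorylation subunits 0 were called (median log2 fold change 0.06), likewise 0 of 22 interferon-stimulated genes (-0.33), 0 of 18 heat shock and unfolded protein response genes (-0.05), 0 of 8 GIMAP GTPases (-0.14) and 0 of 20 sterol and fatty acid genes (0.11). At an unadjusted p below 0.05 these lists held 2, 4, 1, 0 and 4 genes, by DESeq2 1, 1, 0, 0 and 0 DEGs, and by limma 0, 1, 0, 0 and 0. Without mouse 2, 2 interferon-stimulated genes were lower DEGs, and without mouse 3, 1 sterol and fatty acid gene was a higher DEG. Cytosolic ribosomal protein genes had a log2 fold change below 0 in 74 of 81 (median -0.27), and 1 of them, Rps18, was called, at 39.2 ± 6.33 against 66.1 ± 17.7 CPM (adjusted p 0.0112 and 0.411). Rps18 lost its call without mouse 1, 3 or 5. Counts of short abundant genes varied little between libraries (B2m by a CV of 4.39%). Library totals averaged 2064000 counts in ST2+ and 1863000 in ST2- libraries. The part of this in the lower CPM of ribosomal protein genes was not tested. Of 18 rows of glycolysis genes (17 symbols, with 2 identifiers for Aldoa), Pfkp and Tpi1 were higher. Pfkp, the platelet-type phosphofructokinase, was at 328, 407, 369 and 402 CPM against 190, 238, 307, 200 and 254 CPM (adjusted p 0.00126 and 0.0609), and Tpi1 was not called without mouse 1, 3, 4 or 5.

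**Figure D4:**
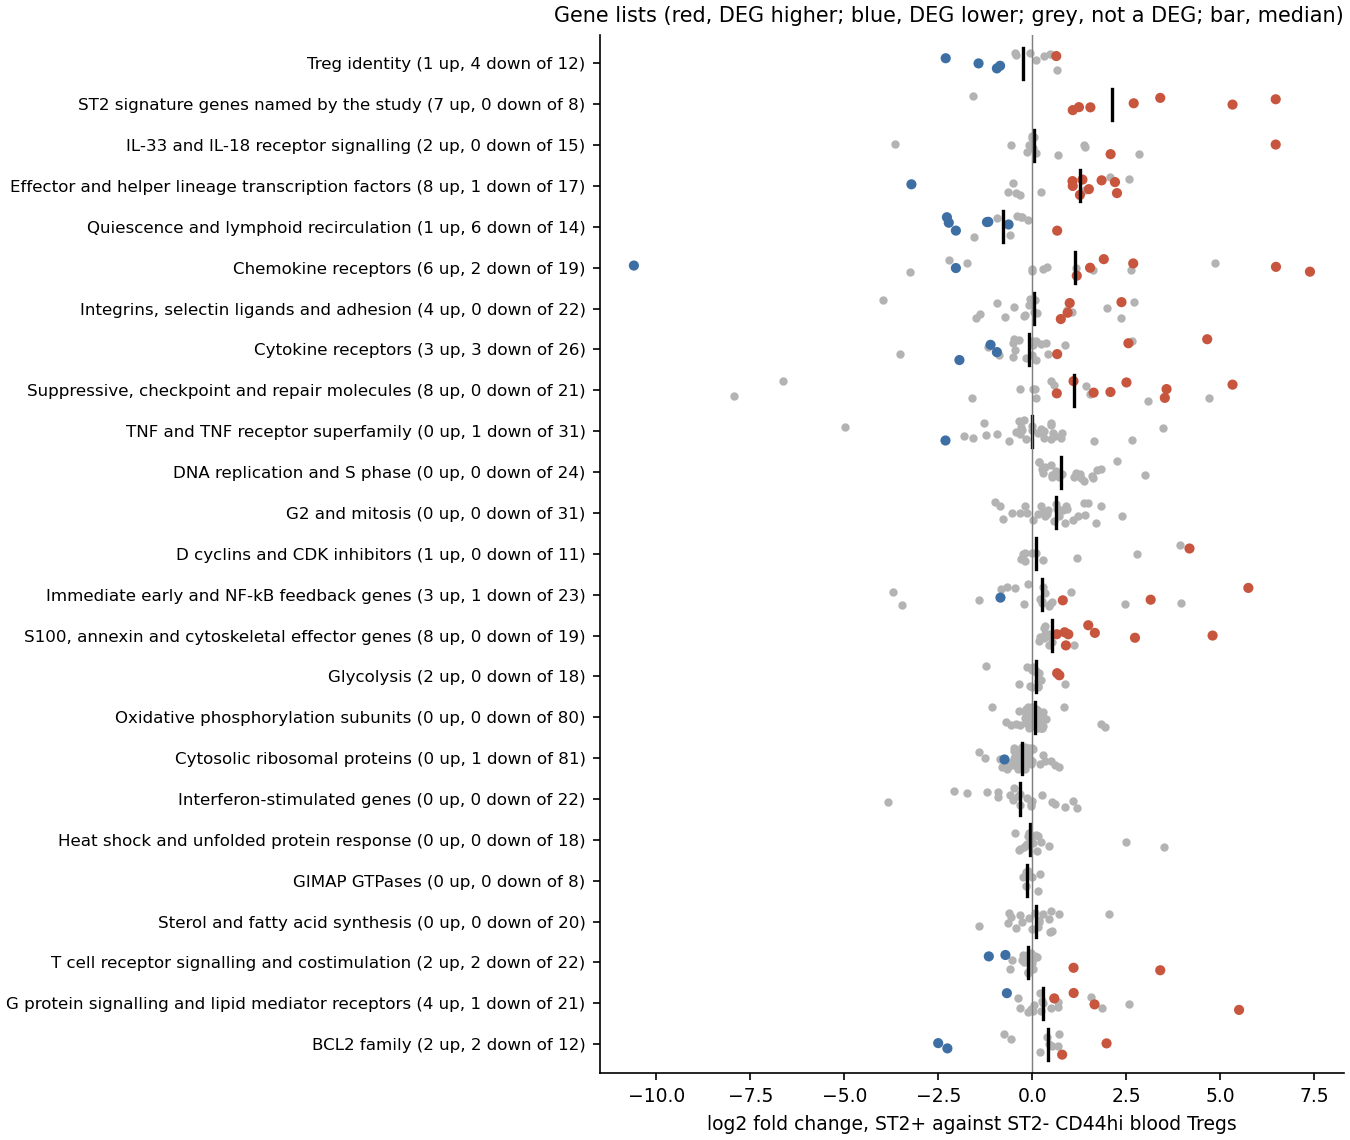
Log2 fold changes of ST2+ against ST2- CD44hi blood Tregs (horizontal axis) for every tested member of 25 gene lists (rows), with red for higher DEGs, blue for lower DEGs, grey for genes that were not called and a black bar for the median of the list. The median is 1.27 in effector transcription factors and -0.78 in quiescence genes, and all 24 genes of S phase lie to the right of 0 without a call.

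Libraries outside blood gave a second view of the blood DEGs. In spleen, ST2- CD44hi Tregs differed from ST2- CD44lo Tregs, sorted as central Tregs, in 663 genes (585 higher and 78 lower in CD44hi, 5.03% of the tested genes). Of the 296 higher blood DEGs, 121 (40.9%) were also higher in CD44hi than in central Tregs of spleen, which is 20.7% of the 585, and the background share is 4.44%. Of the 236 lower blood DEGs, 20 (8.47%) were lower on that axis, which is 25.6% of the 78, with a background of 0.592%. Calls in the opposite direction numbered 1 and 2. On the same axis the median log2 fold change of the higher blood DEGs was 0.96 and that of the lower ones -0.28, against 0.01 over all genes. These are shares of lists and carry no test. All these libraries come from the same 5 mice.

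The same ST2 comparison gave 42 DEGs in spleen (0.319%) and 103 in lungs (0.782%). Of the higher blood DEGs, 23 (7.77%) were higher DEGs in spleen, 56.1% of the 41 found there, and 31 (10.5%) were higher DEGs in lungs, 47% of the 66 found there. Among the lower blood DEGs, 1 was a lower DEG in spleen, the only one found there, and 17 (7.2%) were lower DEGs in lungs, 45.9% of the 37. The background shares were 0.311% and 0.501% for higher and 0.00759% and 0.281% for lower DEGs.

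Whether the ST2 difference in blood was unequal to that in spleen or in lungs was tested gene by gene. The difference between blood and spleen passed in 13 genes (0.0987% of 13173), 4 with a higher (0.0304%) and 9 with a lower value in blood (0.0683%), and that between blood and lungs in 5 genes (0.038%), 1 higher (0.00759%) and 4 lower (0.0304%). Without adjustment, a p below 0.05 was found for 1193 (9.06%) and 1293 (9.82%) genes. Blood differs from spleen and lungs also in the preparation. The methods of the study state that CD4 T cells were enriched with an isolation kit from spleen and lungs, and state no such step for blood. Lungs were also digested with collagenase, a step not stated for blood or spleen. Tissue and preparation cannot be told apart.

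In Satb1, Nfil3 and Foxn3 the ST2- level of blood lay apart from both CD44hi populations of spleen. Satb1 was at 216 ± 38.3 CPM in ST2+ and 153 ± 20.5 CPM in ST2- CD44hi Tregs of spleen (SD, n = 5 each), beside 138 ± 47.7 CPM (SD, n = 4) and 667 ± 149 CPM (SD, n = 5) in blood. Central Tregs of spleen were at 705 ± 61.8 CPM (SD, n = 5). The difference between the tissues was -2.76 ± 0.57 on the log2 scale (adjusted p 0.0349). Nfil3 was at 96.0 ± 33.6 and 107 ± 39.5 CPM in spleen against 131 ± 20.3 and 27.4 ± 23.6 CPM in blood, and at 14.1 ± 7.07 CPM in central Tregs of spleen (difference 2.41 ± 0.46, adjusted p 0.0127). Foxn3 was at 262 ± 47.9 and 257 ± 32.2 CPM in spleen against 241 ± 7.5 and 454 ± 77.7 CPM in blood, with 506 ± 34.2 CPM in central Tregs (difference -0.94 ± 0.20, adjusted p 0.0349). For these 3 genes the ST2- level of blood lay nearer to the central Tregs of spleen than to the CD44hi Tregs of spleen. They were picked from the 13 genes that passed against spleen, a test that used the same ST2- libraries of blood. The pattern thus describes these genes and was not tested over all genes.

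Bcl2 was at 288 ± 74.2 and 387 ± 63.8 CPM in ST2+ and ST2- Tregs of spleen and at 748 ± 58.7 CPM in its central Tregs, beside 147 ± 28.9 and 703 ± 88.3 CPM in blood (difference -1.83 ± 0.40, adjusted p 0.0398). Areg was at 32.1 ± 7.52 and 19.5 ± 8.22 CPM in spleen against 30.4 ± 28.9 and 2.53 ± 1.64 CPM in blood (difference 2.86 ± 0.62, adjusted p 0.0349). Cxcr5 differed in spleen as well, at 34.7 ± 18.5 against 187 ± 13.8 CPM, where it was the 1 lower DEG (difference between tissues -8.17 ± 1.5, adjusted p 0.0127). Il2ra differed from both tissues, at 439 ± 40.3 and 397 ± 60.9 CPM in spleen and 311 ± 24.5 and 253 ± 26.8 CPM in lungs against 239.3 ± 29.8 and 459 ± 83.9 CPM in blood (adjusted p 0.0349 and 0.026). ST2+ Tregs thus had the lower Il2ra level in blood, where in spleen and lungs the ST2 difference did not pass (adjusted p 1.0 and 0.555). Neb, which encodes nebulin, was the reverse case, at 389 ± 62.8 against 92.8 ± 43.3 CPM in spleen and 120 ± 62.2 against 129 ± 37.7 CPM in blood (difference -2.17 ± 0.49, adjusted p 0.0425).

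None of these differences kept an adjusted p of at most 0.05 in all 5 fits that left out a mouse. Without mouse 3 or 4, 0 of the tested genes passed against spleen and 0 against lungs, and without mouse 2 it was 1 (Nfil3) against spleen and 5 against lungs. Without mouse 1 it was 7 and 1, and without mouse 5 it was 9 and 5.

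**Figure D5:**
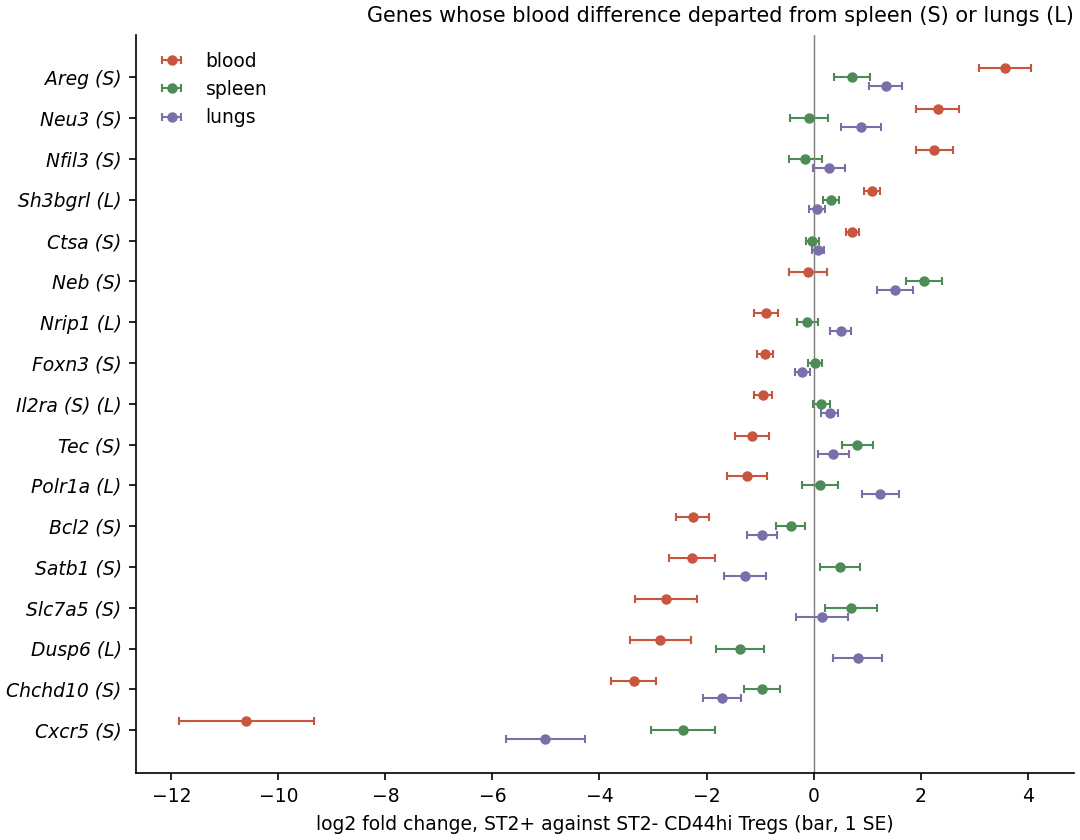
Log2 fold change of ST2+ against ST2- CD44hi Tregs (horizontal axis, bars of 1 SE) in blood (red), spleen (green) and lungs (purple) for the 17 genes whose blood difference departed from that of spleen (S) or lungs (L). In Nfil3, Satb1, Foxn3 and Il2ra the blood value lies away from 0 and the spleen value close to it, and Neb shows the reverse.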

How the data were processed

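Tregs were sorted from 5 mice, and RNA was amplified with SMART-Seq v4 and made into NexteraXT libraries. The deposited table holds raw read counts per gene, which the authors made against GRCm38 with tools that the submitters' processing notes list as CASAVA 1.8.2, STAR, Picard, HTSeq 0.4.1, FastQC and SAMtools. How reads with the same start were handled is not given in the sources used here. B2m varied by a CV of 4.39% over 67 libraries whose totals varied by 17.8%. No gene had more than 5968 counts in a library.

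Of 70 libraries, 67 held at least 1000000 counts and were kept. TMM factors were computed in edgeR 4.0.16 (R 4.3.3), tests were run on the 13173 of 21865 protein-coding genes that reached 1 CPM in 10% of the libraries, and quasi-likelihood models were fitted with 1 term per group and Benjamini-Hochberg adjustment over all tested genes. DEGs needed a 1.5-fold change and an adjusted p of at most 0.05, and differences between tissues the adjusted p alone. SEs were derived from the fold change and the F statistic. A second fit used the 9 blood libraries. Alternatives used mouse as a block, limma 3.58.1, DESeq2 1.42.0, other factors and filters, and each mouse left out. The fitting code was tested on simulated data.

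Both populations of a mouse come from the same animal. Deviations from the group means correlated at 0.0742 on average over 4 same-mouse pairs (-0.00353 to 0.153) and at -0.0167 over 16 pairs of different mice. The members and gene lists were chosen with earlier results of these data known. Named genes were the 10 DEGs of smallest adjusted p in each direction, genes and proteins named by the study, Foxp3, up to 4 DEGs in each direction per list (or 2 members of a list without DEGs), and 5 genes in each direction per difference between tissues. Some genes that these rules name are not reported here.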

Additional observations from a re-analysis of the deposited data

Results flagged for a closer look

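In 168 groups of 4 or 5 library values of named genes, 18 held a library far from the others by Dixon's criterion. Chance alone meets it in about 1 of 20 groups of normally distributed values. That rate does not hold for groups with most libraries at 0, such as Ccr3 and Ccr10 in ST2- libraries. There a level of a few CPM sets a library apart. Among ST2- libraries, that of mouse 5 stood apart for Ltb4r1 (10.5 CPM), Ccr10 (2.34 CPM), Cxcr6 (300.0 CPM), Satb1 (411 CPM) and S100a11 (78.4 CPM). The ST2- library of mouse 2 did so for Ccr7 (1250.0 CPM), Bmpr1a (5.63 CPM) and Ier3 (0.625 CPM), that of mouse 4 for Ccr3 (6.12 CPM) and Mlf1 (0.51 CPM), and that of mouse 1 for Ptpn13 (104 CPM). Among ST2+ libraries, mouse 5 stood apart for Areg (73.2 CPM), Foxp1 (179 CPM) and Mlf1 (41.6 CPM), mouse 2 for Slc35d1 (23.4 CPM) and Bcl2l11 (3.73 CPM), mouse 3 for Bach2 (49.7 CPM) and mouse 4 for Lmna (230.0 CPM). Mlf1 was called in blood and lost its call without mouse 5 (adjusted p 0.0982, edgeR).

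The ST2 difference in blood departed from that in spleen in 13 genes by edgeR's test of the difference, in log2 units of blood minus spleen. It was 2.41 for Nfil3, 2.86 for Areg, 2.41 for Neu3 (a sialidase) and 0.75 for Ctsa (cathepsin A). It was -8.17 for Cxcr5, -3.46 for Slc7a5 (an amino acid transporter), -2.76 for Satb1, -2.40 for Chchd10, -2.17 for Neb, -1.97 for Tec (a kinase of T cell receptor signalling), -1.83 for Bcl2, -1.08 for Il2ra and -0.94 for Foxn3. Against lungs it was 1.02 for Sh3bgrl, -3.69 for Dusp6 (a phosphatase of ERK), -2.50 for Polr1a (an RNA polymerase I subunit), -1.40 for Nrip1 and -1.24 for Il2ra.

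The ST2+ library of mouse 1, which was left out for its low total, held Il1rl1 at 800.0 CPM of its own total.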

How the results depend on the processing

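The count of 532 blood DEGs became 899 by DESeq2, 132 with glmTreat against a 1.5-fold minimum, 115 in blood alone and 75 in blood alone with mouse as a replicate block. With mouse as a block in the fit of all groups it was 582 (318 higher and 264 lower). Leaving out a mouse gave 238 to 451 DEGs, and leaving out mice 1 to 5 in blood alone, a set of fits chosen after seeing the data, gave 100, 30, 42, 27 and 57. The 13 differences between blood and spleen became 99 by DESeq2, 47 by limma, 8 without libraries of fewer than 100 cells, 6 with cell number as covariate, 3 with all 70 libraries, 2 with CD44hi libraries only and 1 with glmTreat, and 0 to 9 with a mouse left out. The 5 differences between blood and lungs became 87 by DESeq2, 8 with cell number as covariate, 3 with all 70 libraries, 3 with all gene types, 0 with CD44hi libraries only and 0 with glmTreat, and 0 to 5 with a mouse left out. The 663 DEGs between CD44hi and central Tregs of spleen became 1523 by limma and 410 with glmTreat, and 457 to 561 with a mouse left out. The cause of these shifts was not tested. The difference in genes detected was 56.15 at a minimum of 5 counts and ranged from -523.0 to 673.9 with a mouse left out. Over 112 named genes and 20 settings, 1904 values kept direction and side of the threshold, 303 lost the call, 26 gained it and 6 changed sign, in 3 genes without a call. Foxp3 was at 0.15 with all 70 libraries, 0.012 by limma and -0.17 to 0.067 with a mouse left out, Hspa1a at -2.43 to 6.10 and Neb at -0.54 to 0.23 with a mouse left out, on the log2 scale. In the pairing by mouse, Itgb3 (adjusted p 0.0559), Tyrobp (adjusted p 0.0547) and, by its fold, Ikzf2 lost the call, and Il10ra (adjusted p 0.031), Cox7c (0.0335) and Oasl2 (0.0383) gained it, by edgeR. With 55 to 220 cells per library, genes of few counts were not detectable in single libraries at this depth.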

Other observations

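The ST2+ library of mouse 1 (66 cells, 488666 counts, 6647 genes detected) entered no comparison, and its values are given as CPM of its own total. Beside Il1rl1 at 800.0 CPM, it held Klrg1 at 426 CPM and Gata3 at 356 CPM, and Cxcr5 at 0. Bcl2, at 667 CPM, lay within the 587 to 778 CPM of the ST2- libraries, and Ccr2, at 10.2 CPM (5 counts), lay below all of them. In this library 57.2% of the tested genes were at 0.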
